A study of Mus musculus with 4 samples.

Results

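Neutrophils are granulocytes that the sort was set to leave out, since it took cells without Ly6G on their surface. A small number were found among sorted phagocytes of the mouse heart by a rule on their own transcripts. A barcode was taken as a neutrophil when the sum of S100a8 and S100a9 reached 20 UMIs (unique molecular identifiers, close to molecules counted) per 10000 and at least 2 of Csf3r, Retnlg, Cxcr2, Mmp9, Il1r2, Hdc and G0s2 had a UMI. The members were thus chosen by the measured levels of these 9 genes. Before that, barcodes needed more than 500 and fewer than 7000 genes, a UMI total under 30000 and less than 10% of UMIs from mitochondrial genes. The rule found 72 neutrophils among 17312 kept barcodes, out of 27968 barcodes in the files. The submitters state 38066 cells before and 17438 after the same filters. Values of the 9 genes therefore describe the choice and are not a result.

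Adult mice received intraperitoneal carboplatin (45 mg/kg), a platinum chemotherapy drug, or PBS as control. Both were injected 2 times weekly over 2 weeks. The animals then recovered for 4 weeks and were fitted under the skin with a minipump that ran for 7 days, with saline or with AngII/PE, which is angiotensin II at 1.5 mg/kg per day with PE at 50 mg/kg per day. Hearts were digested with enzymes, and cells were sorted as CD64+ and CD45+ CD11b+ Ly6G- Ly6C low. The 4 groups were PBS with saline, carboplatin with saline, PBS with AngII/PE and carboplatin with AngII/PE, and every mouse carried a pump and had the recovery period. Each group was 1 library of 10000 loaded cells from 5 pooled mice of mixed sex, and strain and exact age are not given in the sources used here. No group has a replicate, so no test was run, and the intervals below cover counting error only. Values by library are given in the order PBS with saline, carboplatin with saline, PBS with AngII/PE, carboplatin with AngII/PE.

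Neutrophils are short-lived cells made in the bone marrow under the growth factor G-CSF, whose receptor is Csf3r. They are drawn into tissue by chemokines that bind Cxcr2, and they carry ready-made granule proteins whose transcripts are largely switched off before the cell enters the blood. In the heart they are among the first cells to arrive after injury, where they release S100A8 and S100A9, interleukin 1 beta and further chemokines. In cells that have left the blood, the chemokine receptor Cxcr4 is usually gained.

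Upstream sequences are shown for 3 genes on which the values below turn. Cxcl2, a chemokine for neutrophils, and Nfkbia, the inhibitor of NF-kB that NF-kB itself induces, had more UMIs under AngII/PE. S100a9 is the most abundant of the genes that define the cells. Each run is read 5′ to 3′ on the gene's strand from RefSeq (GRCm38.p6), and capitals mark the match to the motif. The Cxcl2 run is chr5:90903749-90903870 (plus strand) and ends 29 bases before the start. The Nfkbia run is chr12:55492648-55492797 (minus strand) and the S100a9 run is chr3:90695722-90695971 (minus strand), both up to the start.
Cxcl2: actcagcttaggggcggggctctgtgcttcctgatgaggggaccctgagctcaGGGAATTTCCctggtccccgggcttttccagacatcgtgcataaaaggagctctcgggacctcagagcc
Nfkbia: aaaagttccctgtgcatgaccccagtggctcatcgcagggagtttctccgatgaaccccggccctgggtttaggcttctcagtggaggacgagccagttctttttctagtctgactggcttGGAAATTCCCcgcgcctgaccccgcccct
S100a9: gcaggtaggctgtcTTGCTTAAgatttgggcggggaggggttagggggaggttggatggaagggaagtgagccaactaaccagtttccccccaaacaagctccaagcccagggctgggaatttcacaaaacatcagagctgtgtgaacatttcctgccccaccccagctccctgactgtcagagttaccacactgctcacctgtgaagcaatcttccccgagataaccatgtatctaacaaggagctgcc
In Cxcl2 and Nfkbia the capitals are matches, on either strand, to an NF-kB motif that reads GGGA, any base, then TTTCC, which begin 97 and 29 bases before the start. In S100a9 they are the 1 match to the C/EBP motif TTGCNNAA, which begins 236 bases before it. Within 250 bases before the start, 0.356% of the 32851 promoters in the table hold the first motif and 9.56% the second. Of the cytokine genes compared in the 50 cells described below, 8 had a promoter in the table and 2 of them, Cxcl2 and Csf1, held the NF-kB motif, as did 1 of 9 genes of a list of NF-kB targets. The motifs and the 3 genes were chosen after their values were seen, and a match describes the letters only.

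Values near the limit of the rule were few. The lowest values of S100a8 with S100a9 inside it were 31.1, 38.9 and 40.8 UMIs per 10000, and the highest outside it, with 2 or more of the 7 markers, were 14.7, 8.90 and 5.69. The 2 lowest members rested on 3 and 4 UMIs of the 2 genes. Of the 72, 68 held at least 5 of the 7 markers and 3 held 2, the fewest the rule allows. In the other kept barcodes the 2 genes summed to between 0.0154 and 0.0729 UMIs per 10000 across libraries. S100a8 lies at chr3:90668978-90670035 and S100a9 at chr3:90692632-90695721 in mm10, as neighbours.

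The barcodes fell into 2 kinds, a division made after the data were seen. In 50 of them 10 macrophage markers summed to under 100 UMIs per 10000 and 6 endothelial markers to under 50. Those 50 held 965 to 8708 UMIs, with a median of 4627. The other 22 were mixed: 18 held macrophage markers at 155 to 626 UMIs per 10000 and 4 held endothelial markers. Mixed barcodes had a median of 16851 UMIs and carried 394802 of the 617267 UMIs in the 72, against 222465 in the 50. By library, 5, 2, 10 and 5 barcodes were mixed, which is 35.7%, 11.1%, 41.7% and 31.2% of the neutrophils. Macrophage barcodes, taken as C1qa, C1qb and C1qc at 20 or more per 10000, had a median of 301 for the same marker sum. Because summed values over the 72 are led by the mixed barcodes, results are given for the 72 and for the 50 side by side. Of the 50, 5 still held C1qa, C1qb and C1qc at 20 or more per 10000, 2 of them with PBS and AngII/PE, 3 with carboplatin and AngII/PE and 0 with saline, and their marker sums reached 98.9. Values over the 45 without them are given beside the main results. No caller of doublets was run.

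**Figure D1:**
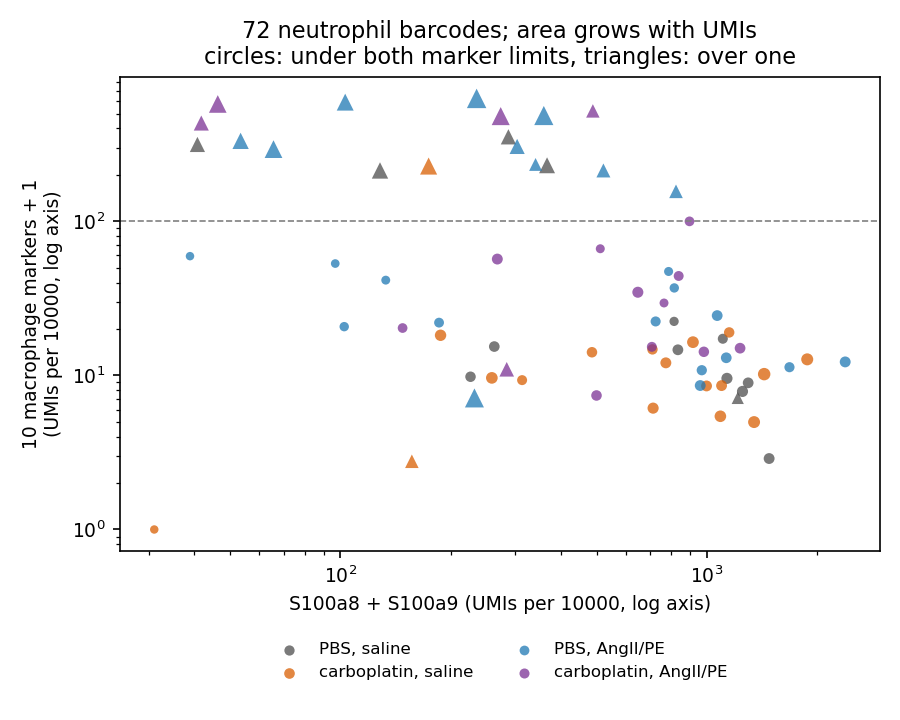
Each point is 1 of the 72 neutrophil barcodes, placed by S100a8 with S100a9 and by the sum of 10 macrophage markers with 1 added, both as UMIs per 10000 on log axes, with colour for the library and area for UMIs. The 18 barcodes above the dashed line at 100 are the ones with macrophage markers, and the 4 triangles under it hold endothelial markers.

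In the 50, the rule's own genes were each at least 10-fold above their level in macrophage barcodes. S100a9 stood at 51055 CPM (counts scaled to the sum of all UMIs of the cells, as UMIs in 1000000) over the 50 and S100a8 at 39584 CPM, against 2.68 and 2.15 CPM in macrophage barcodes. Their products pair as calprotectin, a calcium-binding alarm protein. Retnlg, a resistin-like secreted protein of granulocytes, reached 8186 CPM with a UMI in 47 of 50 cells. Il1r2, a decoy receptor for interleukin 1, reached 3394 CPM and Hdc, which makes histamine, 1883 CPM, each in 48 cells. Csf3r was at 1564 CPM in 49 of 50 cells, against 57.2 CPM in macrophages, of which 42.3% had a UMI. The gelatinase Mmp9 (921 CPM) and the chemokine receptor Cxcr2 (759.7 CPM) had a UMI in 43 cells each. G0s2, an inhibitor of fat breakdown, was the patchiest, with 1124 CPM from 24 of 50 cells.

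Other granulocyte genes, which the rule did not use, were measured in the same barcodes and are given as a description. Of 19 such genes, 18 stood above the macrophage level and 17 at least 10-fold above it. Gpr84 was not above it. Among them the C-type lectin receptor Clec4d was at 2899 CPM, the protease inhibitor Slpi at 2935, Trem1, which amplifies innate signals, at 1339.5 and the antibacterial protein Pglyrp1 at 1079 CPM. Il1b was the most abundant cytokine, at 17248 CPM and in all 50 cells, against 252 CPM in macrophage barcodes. Slc7a11, the cystine carrier, was at 5978 CPM against 4.62 CPM in macrophages.

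Transcripts of the earliest granules were at or near 0. Of the azurophil granule genes, Mpo, Elane, Ctsg, Ms4a3 and Fcnb had 0 UMIs in the 50 cells, and Prtn3 and Prss57 had 2 UMIs each. The specific granule genes Ltf and Camp had a UMI in 0 of 50 cells, which allows a share of cells with a UMI of up to 6% (3 counts of the 50), and Ngp had 1 UMI. Lcn2, an iron-scavenging protein of the same granules, remained at 782 CPM. The gelatinase granule genes Adam8 and Mmp8 were at 432 and 297 CPM. Mki67, a gene of cycling cells, had 0 UMIs.

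Transcripts of the sort's antigens were measured too. Ly6g, the antigen gated against, had a UMI in 6 of 50 cells, or 12% (Clopper-Pearson 95% interval 4.53% to 24.3%), and in 0 of 12958 macrophage barcodes. Fcgr1, which encodes CD64, the antigen gated for, had a UMI in 1 of 50 cells, at 4.50 CPM against 216 CPM in macrophages. Ly6c2 had a UMI in 8 of 50 cells. Ptprc (CD45) was at 1798 CPM and Itgam (CD11b) at 328 CPM. The median depths were 4627 UMIs in the 50 and 13015.5 in macrophages. Of markers of other cells, those of macrophages were found in 49 of the 50, with 0 of 10 genes at 0 UMIs. Markers of patrolling monocytes had a UMI in 30 cells, of endothelium in 18, of platelets in 15, of cardiomyocytes in 14 and of classical monocytes in 12. Markers of fibroblasts, erythroid cells, B cells, eosinophils and T and NK cells had one in 6, 4, 3, 2 and 1 cells. All 6 markers of dendritic cells and all 6 of basophils and mast cells had 0 UMIs.

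**Figure D2:**
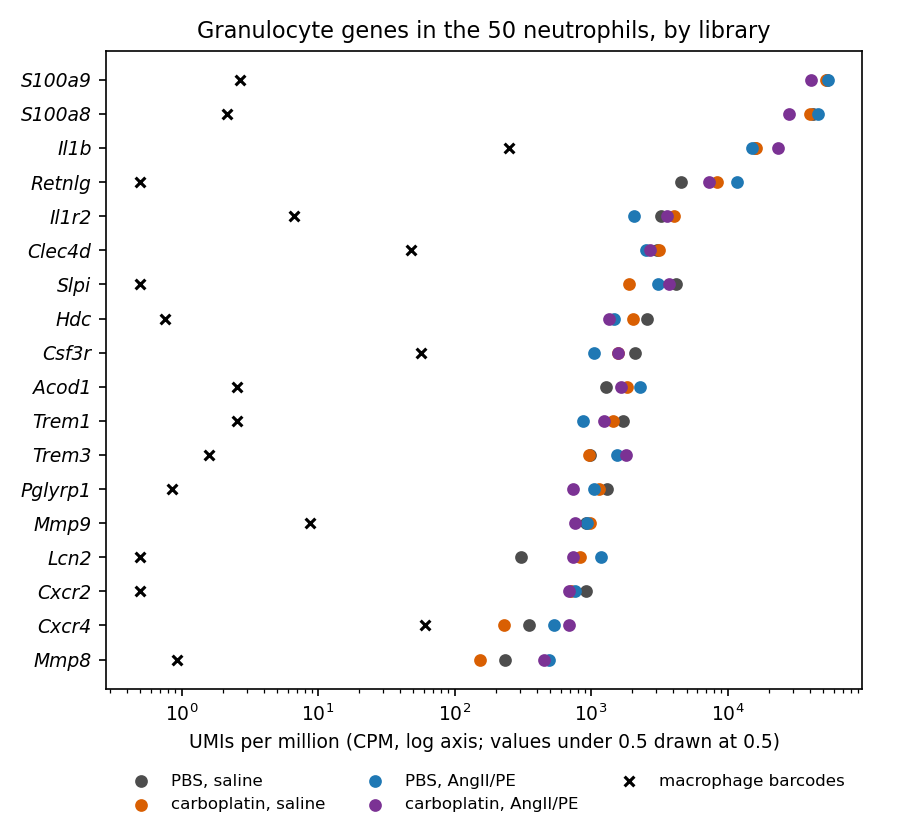
Level of 18 granulocyte genes in CPM on a log axis, summed over the 50 neutrophils under both marker limits in each library (coloured points) and over all macrophage barcodes (crosses). S100a9 is the highest, at 51055 CPM over the 50 against 2.68 CPM in macrophages, and Cxcr4 is at 405 CPM against 61.2 CPM.

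Neutrophils were under 1% of kept barcodes in each library. The rule found 14 of 4310 kept barcodes with PBS and saline, or 0.325% (95% interval 0.178% to 0.544%). With carboplatin and saline it found 18 of 3484, or 0.517% (0.306% to 0.815%). With PBS and AngII/PE it found 24 of 3849, or 0.624% (0.400% to 0.926%), and with carboplatin and AngII/PE 16 of 5669, or 0.282% (0.161% to 0.458%). The highest share was in the PBS AngII/PE library and the lowest in the carboplatin AngII/PE library, and all 4 intervals overlapped. In the 50 the shares were 0.209%, 0.459%, 0.364% and 0.194%, so the highest was in the carboplatin saline library. Shares were of a sort against Ly6G, so they are not shares of heart cells.

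With both drug arms summed, 40 of 9518 barcodes under AngII/PE and 32 of 7794 under saline were neutrophils, 0.420% and 0.411%, a ratio of 1.02 (95% interval 0.627 to 1.68). Within the PBS arm the AngII/PE share was 1.92 times the saline share (0.954 to 4.01), and within the carboplatin arm 0.546 times (0.261 to 1.13). The directions were opposite, and the difference between arms was not tested. In the 50 the summed ratio was 0.819 (0.451 to 1.49), with 1.74 (0.702 to 4.56) in the PBS arm and 0.423 (0.177 to 0.969) in the carboplatin arm. In the 45 the summed ratio was 0.655 (0.345 to 1.23), and leaving out barcodes of the 72 with C1q at 10 or more per 10000 gave 0.557. Carboplatin over PBS was 0.798 (0.487 to 1.30) summed, 1.59 (0.747 to 3.46) in the saline arm and 0.453 (0.225 to 0.888) in the AngII/PE arm.

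**Figure D3:**
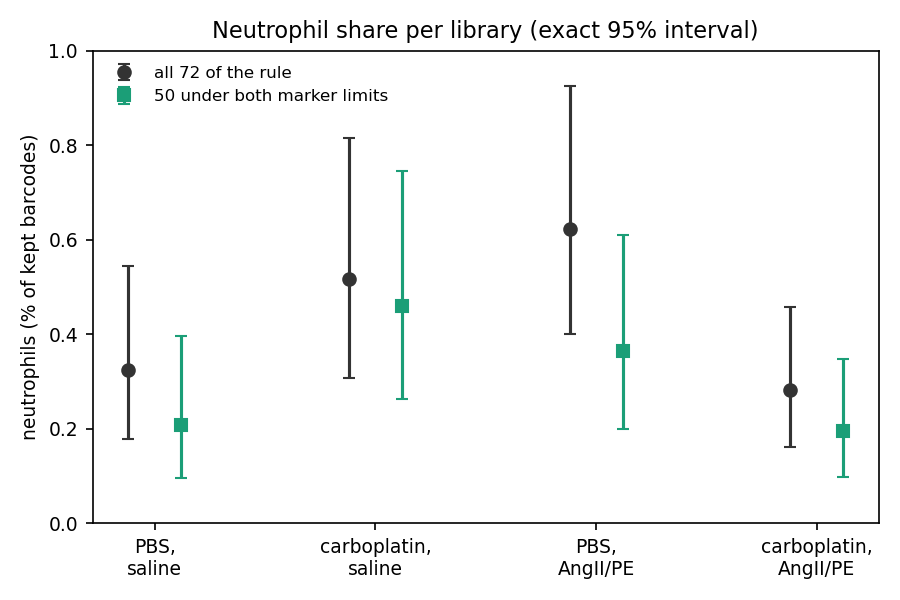
Neutrophils as a percentage of kept barcodes in each of the 4 libraries, for all 72 (circles) and for the 50 under both marker limits (squares), with exact 95% binomial intervals. Under PBS the AngII/PE library is above the saline library (0.624% against 0.325%), and after carboplatin it is below it (0.282% against 0.517%).

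Over all 72, genes whose level is higher in macrophage barcodes were 85.2% of those higher under AngII/PE and 10.1% of those lower, against 47.4% of all genes compared. A gene was compared when the mean of both treatments was at least 100 CPM and at least 8 neutrophils had a UMI, and it was counted when the summed ratio was at least 2-fold and both drug arms went the same way. Of 1739 genes compared, 135 (7.76%) were higher under AngII/PE and 149 (8.57%) were lower. Of the 135, 115 had their higher level in macrophage barcodes, while 134 of the 149 were at least as high in neutrophils as in macrophages. Macrophage markers summed to 291 UMIs per 10000 under AngII/PE and 103 under saline, with a range over libraries of 46.7 to 300. Among the 10 macrophage markers 5 were in the higher group, among them Apoe at 3.83 (95% interval 3.60 to 4.08). What part these transcripts have in the other differences over the 72 was not tested.

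Scaling moved this balance. On edgeR's TMM scale the median of all compared genes moved from -0.05 to -0.24 (log2), and 92 genes were higher and 241 lower, so higher calls were 27.6% of all calls against 47.5% by totals. In the 50 the median moved from 0.00 to -0.14, with 95 higher and 182 lower.

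The rule genes themselves were lower in the 72 under AngII/PE, with a median log2 ratio of -0.83 against -0.05 over all genes compared, and 3 of 9, Mmp9, Il1r2 and Hdc, were counted as lower. In the 50 none of the 9 was counted, and their median was -0.18 against 0.00. These 9 chose the cells, so nothing is read from either median or from the values by library that follow, which only describe the chosen cells. In the 50, S100a8 was at 42199, 40451, 45839 and 28088 CPM by library, a ratio of 0.913, and S100a9 at 53665, 52913, 54268 and 40812 CPM, a ratio of 0.901. The carboplatin AngII/PE library was the lowest for both. Retnlg was at 4582, 8429, 11737 and 7349 CPM, highest in the PBS AngII/PE library.

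Of the 12 genes with the highest AngII/PE ratio in the 72, among those at or above the macrophage level and eligible to be named, several came from few barcodes. Ly6a, Ly6c1, Igfbp7 and Sparc, which are abundant in endothelial barcodes (1843, 2255, 2130.3 and 2543 CPM), had ratios of 11.5, 8.25, 9.08 and 3.75. A single barcode gave 42 of the 94 UMIs of Ly6a, 102 of the 151 UMIs of Ly6c1, 60 of the 105 UMIs of Igfbp7 and 45 of the 95 UMIs of Sparc. In the 50 these 4 had at most 6 cells with a UMI. Ctsd, a lysosomal protease, was at 537, 453, 1072 and 2468 CPM and 3.15 in the 72, but at 1.50 (95% interval 1.08 to 2.09) in the 50. Fkbp5, a co-chaperone induced by glucocorticoids, Bcl2l1, which blocks apoptosis, Asxl1, a chromatin regulator, and Abr, a regulator of small GTPases, had ratios of 4.04, 3.11, 2.84 and 2.74 in the 72. None of the 4 was counted in the 50, where their intervals all held 1. The remaining 3, Ccl4, Asprv1 and Tnf, were counted in both sets.

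In the 50, 25 cells under saline and 25 under AngII/PE, 1496 genes were compared, of which 121 (8.09%) were higher under AngII/PE and 127 (8.49%) lower. The interval left out 1 for 103 and 111 of these. Only 29 of the higher and 60 of the lower genes were also counted in the 72. Of the 121, 70 had their higher level in macrophages, or 57.9%, against 32.7% of the 1496 compared. In the 45, 129 of 1491 genes (8.65%) were higher and 144 (9.66%) lower, and 108 and 114 of these were counted in the 50. Saline cells were deeper, with a median of 5300 UMIs against 3492. Macrophage markers were higher under AngII/PE here too, with 4 of the 6 compared counted, a sum of 26.2 against 10.0 UMIs per 10000 and Apoe at 4.98 (95% interval 3.32 to 7.64). In the 45, Apoe was the only one of them still counted, at 4.16. The others, C1qa, C1qb and C1qc, went from 2.30, 2.69 and 2.30 to 1.73, 1.64 and 1.62. Their own sum chose the 45, so nothing is read from that drop. Macrophage levels are given beside genes described below that are abundant there. What macrophage RNA and depth contribute to these differences was not tested.

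Among cytokines and chemokines, 4 of 10 compared were higher and 1 lower, with a median log2 ratio of 0.81 against 0.00 over all genes compared. Of all genes compared in the 50, 8.09% were higher and 8.49% lower. The chemokine Cxcl2, which binds Cxcr2, was at 2115, 3462, 9240.3 and 5969.6 CPM. Both AngII/PE libraries were above both saline libraries, and the summed ratio was 2.54 (95% interval 2.24 to 2.88). In macrophages the same ratio was 1.03 (95% interval 1.02 to 1.04), and their AngII/PE level of 604 CPM was under the 7694 CPM of the 50. In the 45 the ratio was 2.68 (95% interval 2.36 to 3.05). By library, 3 cells held 67.8%, 62.2%, 55.0% and 67.7% of the Cxcl2 UMIs. A single cell gave 122 of the 315 UMIs in the carboplatin saline library.

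Ccl4, a chemokine for monocytes and lymphocytes, was at 799, 121, 1686 and 2569 CPM. Its ratio was 6.24 (95% interval 4.49 to 8.85) in the 50 and 4.61 (95% interval 3.65 to 5.88) in the 72, where macrophages gave 1.75 and reached 823 CPM under AngII/PE. The signal sat in few cells: 3 cells held 88.6% of the Ccl4 UMIs in the PBS AngII/PE library and 93.5% in the carboplatin AngII/PE library. Of these 6 cells, 3 were among the 5 with C1q at 20 or more, at 25.7, 23.0 and 28.7 UMIs per 10000. Without those 5 cells the ratio was 4.04 (95% interval 2.82 to 5.86). Cells with a UMI were 5 of 9, 6 of 16, 6 of 14 and 7 of 11 by library. Its neighbour Ccl3 was at 611, 736, 1408 and 1189 CPM, a ratio of 1.87 (95% interval 1.41 to 2.49), under the 2-fold limit, while macrophages had a ratio of 2.11 and 455 CPM under AngII/PE.

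Tnf, the inflammatory cytokine, had 27 UMIs in all, with cells 1 of 9, 6 of 16, 7 of 14 and 4 of 11 by library and a ratio of 3.00 (95% interval 1.28 to 7.59). Macrophages held 178 CPM of it, with a ratio of 1.22. Csf1, the macrophage growth factor, had 21 UMIs and a ratio of 2.0 (95% interval 0.775 to 5.38). Il1b was near even, at 15977, 16033, 15152 and 23498 CPM and 1.19 (95% interval 1.12 to 1.27). In the other direction stood Il1rn, the antagonist of the interleukin 1 receptor, at 376, 451, 64.0 and 166 CPM with a ratio of 0.264 (95% interval 0.12 to 0.521) in the 50 and 0.233 (95% interval 0.145 to 0.363) in the 72. Both AngII/PE libraries were under both saline libraries for Il1rn, and macrophages held 16.7 CPM. Osm, a cytokine of the interleukin 6 family, was at 1.16 and the chemokine Ccl6 at 1.17, both under the limit.

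Of 11 NF-kB target and feedback genes compared, 2 were higher and 1 lower, with a median of 0.56. The shares over all genes compared were 8.09% and 8.49%, with a median of 0.00. Nfkbia was at 846, 714, 2454 and 2212 CPM, a ratio of 3.09 (95% interval 2.43 to 3.96) in the 50 and 2.45 (95% interval 2.0 to 3.01) in the 72. Macrophages had a ratio of 1.15 and 513 CPM under AngII/PE, against 2339.6 CPM in the 50, and in the 45 the ratio was 3.38 (95% interval 2.64 to 4.33). By library, 3 cells held 88.9%, 58.5%, 47.0% and 76.3% of the Nfkbia UMIs. A single cell gave 46 of the 93 UMIs in the carboplatin AngII/PE library. Cells with a UMI were 5 of 9, 11 of 16, 14 of 14 and 8 of 11, and after thinning to 2000 UMIs they were 45.8% of 24 cells with saline and 73.7% of 19 with AngII/PE, against 64% and 88% without thinning. Ier5, an early response gene, was at 446, 681, 1195 and 1475 CPM with 2.19 (95% interval 1.64 to 2.94), against 365 CPM in macrophages and a ratio of 1.10. Ccrl2, a receptor that binds chemerin without signalling, was lower at 0.289 (95% interval 0.0866 to 0.765) from 31 UMIs, and in the 72 its ratio was 1.35. Tnfaip3, an NF-kB brake, was at 1.50, Nfkbiz at 1.47 and Nfkb1 at 0.513. Ier3 went in opposite directions, with a ratio of 3.63 in the PBS arm and 0.172 in the carboplatin arm.

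**Figure D4:**
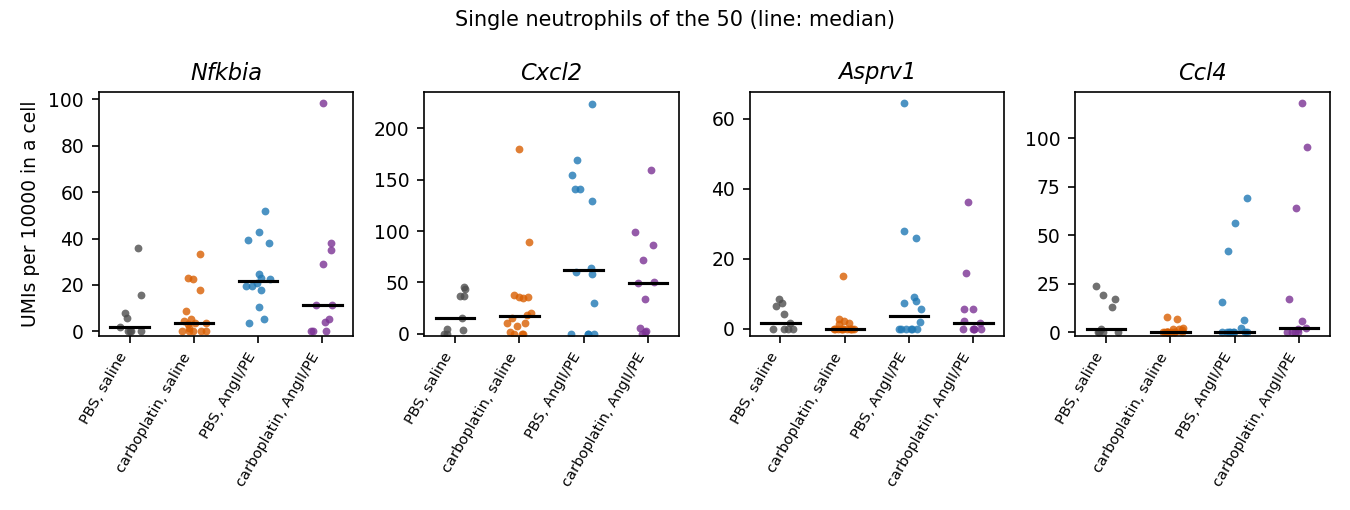
UMIs per 10000 in each of the 50 neutrophils for 4 genes, by library, with a line at the median. Nfkbia and Cxcl2 had higher medians under AngII/PE (19.6 against 3.45 and 58.4 against 15.5 with the drug arms joined). The Ccl4 and Asprv1 amounts lay in a few cells of each library. For Nfkbia and Cxcl2, 3 cells held 47.0% to 88.9% and 55.0% to 67.8% of the UMIs of a library.

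Of the granulocyte genes outside the rule, 3 of 17 compared were higher and 0 lower, with a median of 0.24. The shares over all genes compared were 8.09% and 8.49%, with a median of 0.00. Asprv1, a retroviral-like protease, was the most different at 329, 132, 1472 and 761 CPM with 5.84 (95% interval 3.76 to 9.36) in the 50, 2.77 (95% interval 1.84 to 4.31) in the 72 and 6.66 (95% interval 4.29 to 10.7) in the 45. It was at 0.0952 CPM in macrophages, and 1 cell gave 33 of the 127 UMIs. By library, 3 cells held 85.7%, 83.3%, 88.4% and 87.5% of the Asprv1 UMIs, so its signal too sat in few cells. Wfdc17, a secreted anti-protease, was at 329, 1033, 1216 and 2830.2 CPM with 2.45 (95% interval 1.92 to 3.14), against 552 CPM in macrophages and a ratio of 1.21. Also higher was Ifitm1, a membrane protein that restricts viruses, at 1198, 879, 2198 and 2331 CPM with 2.30 (95% interval 1.84 to 2.89) and at 2.24 CPM in macrophages. Trem1 was at 0.682, Slpi at 1.29 and Clec4d at 0.844. In the 72 Trem1 was counted as lower, at 0.464. Mmp8, the collagenase of gelatinase granules, was higher at 235, 154, 491 and 452 CPM and 2.63 (95% interval 1.56 to 4.54), with 0.929 CPM in macrophages. Lcn2 was not counted, with a ratio of 3.84 in the PBS arm and 0.895 in the carboplatin arm. Chil3 had 45 UMIs, 43 of them in the PBS AngII/PE library, with 0 in the carboplatin AngII/PE library.

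Of the receptors for chemoattractants, 1 of 7 was higher and 1 lower, with a median log2 ratio of 0.02. The shares over all genes compared were 8.09% and 8.49%, with a median of 0.00. Cxcr4, the receptor that returns aged neutrophils to the marrow, was at 352, 231, 534 and 689.7 CPM, a ratio of 2.25 (95% interval 1.45 to 3.54), in 7 of 9, 9 of 16, 11 of 14 and 10 of 11 cells. Its ratio in macrophages was 2.70, where it reached 81.0 CPM. Fpr1, the receptor for bacterial formyl peptides, had a ratio of 5.22 in the PBS arm and 0.962 in the carboplatin arm. The complement receptor C5ar1 was at 1.47 and Ccr1 at 0.923. Of 7 adhesion genes compared none was counted, the integrin Itgam being at 0.607 and Cd44 at 1.15. Among cytokine receptors Ifngr1, for interferon gamma, was higher at 2.79 (95% interval 1.40 to 5.78) and Il6ra lower at 0.188 (95% interval 0.0362 to 0.618), the others of 10 compared being uncounted. Macrophages held 393 CPM of Ifngr1 with a ratio of 1.32, and 188 CPM of Il6ra.

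Of 16 immediate-early and heat shock genes compared, 2 were higher and 1 lower, with a median of 0.27. For this list and the glucocorticoid genes below, the shares over all genes compared were 8.09% and 8.49%, with a median of 0.00. Jun was at 282, 286, 1366 and 618 CPM with 3.56 (95% interval 2.41 to 5.34), but 1 cell gave 53 of the 128 UMIs and macrophages held 1159.7 CPM, against 575 CPM over the 50. Klf2, a transcription factor that restrains myeloid activation, was at 1598, 1121, 2838 and 2521 CPM with 2.11 (95% interval 1.73 to 2.59), whereas in macrophages the ratio was 0.264 (95% interval 0.26 to 0.269) and in the 72 0.85. The co-chaperone Dnaja1 was lower at 0.46 (95% interval 0.284 to 0.72). Fos and Junb, the most abundant of the list, were at 1.06 and 1.06. Of 3 glucocorticoid response genes compared, Tsc22d3 at 2.30 (95% interval 1.48 to 3.60) and Cebpd at 2.03 (95% interval 1.41 to 2.94) were higher. Macrophages held 266 and 132 CPM of them, with ratios of 1.28 and 0.976. Nr3c1, the glucocorticoid receptor, was lower at 352, 385, 64.0 and 119 CPM and 0.24 (95% interval 0.0984 to 0.511), as in the 72 at 0.381 (95% interval 0.263 to 0.547). The angiotensin receptors Agtr1a, Agtr1b and Agtr2 had 0 UMIs in the 72.

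Of 6 survival and apoptosis genes compared, 2 inducers of apoptosis were higher: Bcl2l11 (Bim) at 235, 187, 662 and 618 CPM with 3.17 (95% interval 1.97 to 5.22), and Pmaip1 (Noxa) at 47.0, 165, 149 and 595 CPM with 2.83 (95% interval 1.52 to 5.43). In the 72 they were at 1.09 and 1.39, and macrophages held 85.4 and 36.3 CPM. Mcl1, on which neutrophil survival depends, was even at 3219, 3462, 3094 and 3353 CPM and 0.951 (95% interval 0.817 to 1.10). Of 8 interferon genes compared, 1 was higher, Ifitm1, and the median was -0.01. Of 6 oxidase genes none was counted, with Cyba, a membrane subunit, at 0.989.

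Of the 127 genes lower in the 50, Myo1d, an unconventional myosin, was at 446, 439.6, 21.3 and 23.8 CPM, with 59 UMIs under saline and 2 under AngII/PE, and a ratio of 0.0509 (95% interval 0.00603 to 0.192). In the PBS saline and carboplatin saline libraries 3 cells held 100% and 52.5% of the Myo1d UMIs. In the PBS saline library 1 cell gave 13 of the 19. Thbs1, a matrix protein that activates TGF-beta, was at 728, 506, 128 and 0 CPM. Its ratio was 0.117 (95% interval 0.0417 to 0.267), with 0 UMIs in the carboplatin AngII/PE library. For Thbs1, 3 cells held 90.3% and 73.9% of the UMIs in the same saline libraries. Cwc25, a splicing factor, was at 0.178 (95% interval 0.0687 to 0.391), Emd (emerin, of the nuclear envelope) at 0.229 (95% interval 0.0999 to 0.465) and Dgat1, which makes triglycerides, at 0.319 (95% interval 0.203 to 0.487). Dusp5, a phosphatase of ERK, was at 0.376 (95% interval 0.175 to 0.739), the kinase Cdk11b at 0.334 (95% interval 0.217 to 0.499) and Vps37b, of the ESCRT sorting machinery, at 0.418 (95% interval 0.321 to 0.538). All 8 were also counted as lower in the 72, at 0.135, 0.223, 0.119, 0.177, 0.229, 0.232, 0.236 and 0.259. Of the rest of the 12 lowest genes of the 72, Eml1, a microtubule protein, had a UMI in 7 of the 50 and so was not compared there. Vcl (vinculin) and Stat4, which carries interleukin 12 signals, had ratios of 0.179 and 0.262 in the 72, but their arms went in opposite directions in the 50. Ptgs2, the inducible prostaglandin synthase, was at 2138, 1022, 171 and 714 CPM and 0.31 (95% interval 0.213 to 0.442) in the 50. Hif1a, the hypoxia factor, and Slc2a3, a glucose carrier, were the 2 of 11 glycolysis genes counted, both lower, at 0.173 (95% interval 0.0336 to 0.566) and 0.454 (95% interval 0.242 to 0.806). Over all genes compared in the 50, 8.49% were lower. The checkpoint ligand Cd274 was at 0.24 (95% interval 0.0608 to 0.696) from 29 UMIs, with 0 in the PBS AngII/PE library, and the endotoxin receptor Tlr4 at 0.392 (95% interval 0.131 to 0.99).

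**Figure D5:**
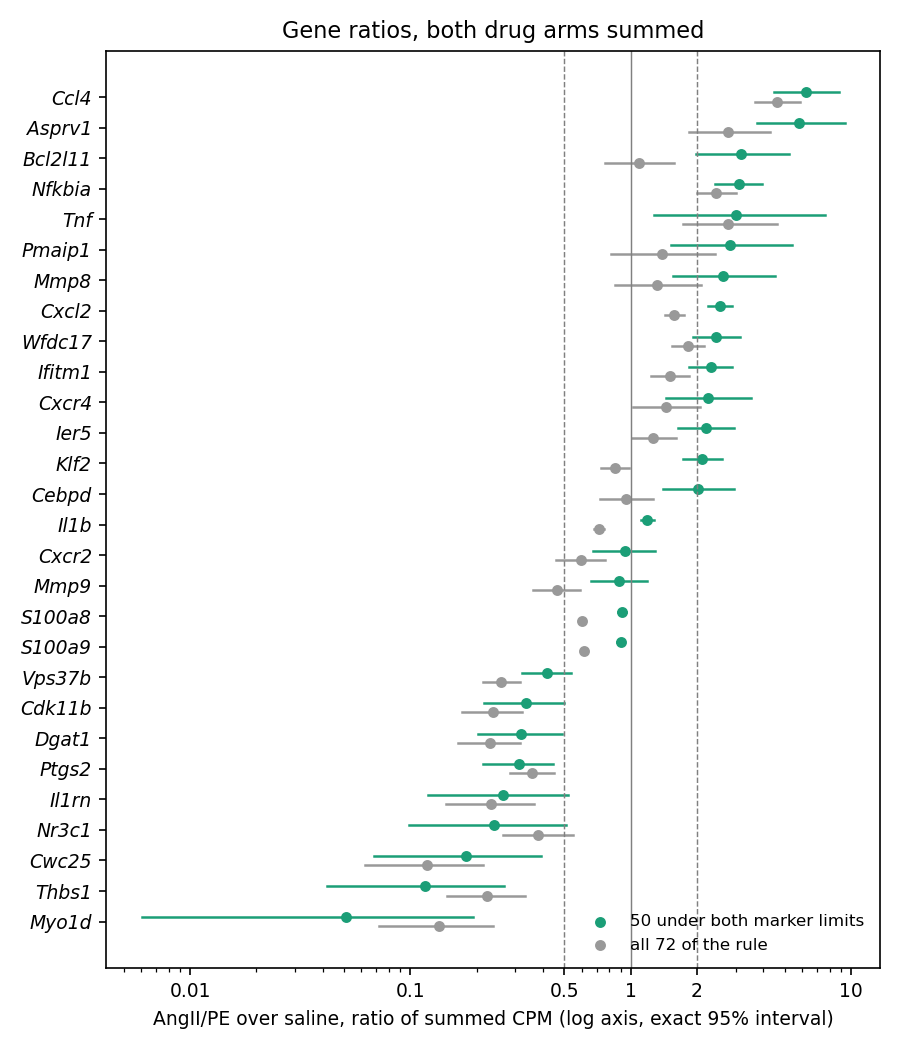
AngII/PE over saline with both drug arms summed, for 28 genes, as the ratio of CPM on a log axis with its exact 95% interval, in the 50 (green) and in all 72 (grey). Solid and dashed lines mark 1 and 2-fold, and Ccl4, Nfkbia and Tnf lie above 2 in both sets whereas Myo1d, Thbs1 and Cwc25 lie under 0.5 in both.

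Carboplatin against PBS, with both pump arms summed, gave fewer differences. In the 72, 44 of 1729 genes (2.54%) were higher after carboplatin and 50 (2.89%) lower, and 48 of the 50 lower genes had their higher level in macrophages, against 48.2% of all genes compared. Macrophage markers summed to 176 UMIs per 10000 after carboplatin and 245 after PBS. In the 50, 76 of 1482 genes (5.13%) were higher and 74 (4.99%) lower, with 17 and 6 of them counted in the 72 too. The interval left out 1 for 57 and 64 of these. The sex of the cells moved with the drug arms. Cells called by Xist or Y-linked transcripts were 11 female and 7 male after carboplatin against 1 female and 17 male after PBS, with 36 of the 72 not called. Within male-called cells, with a UMI in 4 cells as the minimum and so another set of genes compared, 87 genes were higher and 115 lower. What part sex has in the values of single genes was not tested.

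Interferon-stimulated genes gave the most counted members after carboplatin, with 4 of 8 compared higher in the 50, none lower and a median log2 ratio of 0.73 against -0.02. The shares over all genes compared in the 50 were 5.13% higher and 4.99% lower. In the 72 it was 1 of 8 higher and 2 lower, with a median of 0.20 against 0.01. Isg15, a ubiquitin-like protein, was at 70.5, 219.8, 0 and 357 CPM in the 50 and 7.84 (95% interval 2.47 to 39.8), in 2 of 9, 6 of 16, 0 of 14 and 5 of 11 cells, and 4.01 (95% interval 2.37 to 7.06) in the 72. Rtp4, an interferon-induced chaperone of receptors that is not in that list, was at 23.5, 286, 0 and 428 CPM, with 1 UMI after PBS and 44 after carboplatin, and at 4.00 (95% interval 2.48 to 6.67) in the 72. Slfn4, a schlafen of myeloid cells, was at 3.36 (95% interval 1.26 to 11.2), the antiviral Oasl2 at 2.46 (95% interval 1.15 to 5.86) and Ifitm3 at 2.02 (95% interval 1.31 to 3.18). In the 45, Isg15 was at 5.99 (95% interval 1.84 to 30.9) and Ifitm3, at 1.95 (95% interval 1.24 to 3.14), fell under the limit. Few cells carried the signal: 3 cells held 85% of the Isg15 UMIs in the carboplatin saline library and 86.7% in the carboplatin AngII/PE library. In macrophages the carboplatin ratios were 1.33, 1.32, 1.82, 1.34 and 1.05 in the same order.

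Of the other genes named for carboplatin in the 72, Prim2, a DNA primase subunit, rested on 1 cell with 55 of the 73 UMIs and Tmx4, a thioredoxin-like protein, on 1 cell with 32 of the 59 UMIs. Vcl was at 3.73 (95% interval 1.82 to 8.64) in the 50 and 3.05 (95% interval 1.96 to 4.84) in the 72, and Hist1h2bc, a histone H2B gene, at 2.20 (95% interval 1.21 to 4.22) and 3.03 (95% interval 2.0 to 4.67). Rab44, a large Rab protein of granulocytes and mast cells, was lower at 211, 176, 299 and 0 CPM and 0.468 (95% interval 0.231 to 0.924), and the adaptor Crk, at 0.461 (95% interval 0.255 to 0.795) in the 72, was not compared in the 50. Of 4 p53 target genes compared in the 50, Pmaip1 was higher at 2.99 (95% interval 1.43 to 7.00) and Cdkn1a lower at 0.493 (95% interval 0.205 to 1.15), which in the 45 was at 0.507 and not counted. Over all genes compared in the 50, 5.13% were higher and 4.99% lower. Stfa2l1, a stefin of granulocytes, was lower at 2608, 407, 1387 and 904 CPM and 0.286 (95% interval 0.216 to 0.377). In the saline libraries 3 cells held 86.5% and 97.3% of its UMIs, and 1 cell gave 50 of the 111 UMIs in the PBS saline library. Asprv1 was lower at 0.356 (95% interval 0.241 to 0.52). None of the 9 rule genes, 9 cytokines, 7 chemoattractant receptors or 16 immediate-early genes compared was counted in the 50, but Ccl4 was lower in the 45, at 0.325 (95% interval 0.226 to 0.463).

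The 4 libraries held 5997 to 8012 barcodes and 62943457 to 95752612 UMIs, of which the filters kept 49.4% to 70.8% of barcodes. Kept barcodes had median depths of 10593 to 12737 UMIs. Of 17278 kept barcode sequences 34 occurred in more than 1 library, and none of them was a neutrophil. The median mitochondrial share of the neutrophils was 1.16% to 2.62% by library.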

How the data were processed

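Each deposited matrix gives UMI counts, not normalized, made by the authors with Cell Ranger 7.1.0 per the file headers (the labels' protocols name V3), on mm10. Seurat is named, as version 4, in the submitters' processing notes. Nothing read here says if intronic reads were included. No doublet step is named in the labels. The filters are those the submitters state.

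Counts were summed over the neutrophils of each library and divided by their total (CPM) in Python 3.11.15 with numpy 2.4.6 and scipy 1.17.1. Ratios carry exact conditional binomial 95% intervals, and shares exact Clopper-Pearson intervals. These cover counting error only. A count of 0 allows up to 3 counts. UMIs remove PCR copies. The deepest neutrophil had 29273 UMIs and the shallowest 965, and genes under 100 CPM on average, or with a UMI in fewer than 8 neutrophils, were not compared. No test was run, since each group is 1 library. Genes were named as the 12 highest and 12 lowest ratios among those counted in the 72 (6 and 6 for carboplatin) whose level was at least that in macrophages. Mitochondrial, ribosomal, sex-linked, haemoglobin and unnamed genes and markers of other cells were not eligible. For each gene list, the members that its role turns on and the extremes were added. The code was tested on simulated Poisson counts per library, with no spread between cells. That test cannot show how the intervals hold where few cells carry most UMIs of a gene. The members, lists and rules were chosen with earlier results of these data known, and the division into 50 and 22, the 45 of the 50 with C1q under 20 per 10000, and every value that rests on them, were added after these data were seen. The alternatives tried were other rule limits and filters, thinning to 2000 UMIs, a mean over cells, the TMM scale (edgeR 4.0.16, R 4.3.3), single arms, cells of 1 sex and leaving out the deepest neutrophil of each arm. Gene positions are from the GENCODE annotation of mm10. Some genes of the lists are not reported here.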

Additional observations from a re-analysis of the deposited data

Results flagged for a closer look

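The difference in neutrophil share between AngII/PE and saline libraries had opposite directions in the 2 drug arms. Each side was 1 library, and the difference between arms was not tested. In all 72 the AngII/PE share was 1.92 times the saline share in the PBS arm and 0.546 times in the carboplatin arm. In the 50 under both marker limits the values were 1.74 and 0.423. Read by drug, the carboplatin share was 1.59 times the PBS share under saline and 0.453 times under AngII/PE in the 72, and 2.20 and 0.533 times in the 50.

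Barcodes that the filters removed also met the neutrophil rule, in data outside the comparisons. There were 4 of 3565 removed barcodes in the carboplatin saline library and 5 of 2343 in the carboplatin AngII/PE library, against 2 of 2600 in the PBS saline control and 0 of 2148 in the PBS AngII/PE library. Of these 11, 5 had a mitochondrial share of 10% or more and 6 exceeded the limits on UMIs or genes.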

How the results depend on the processing

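No paired analysis was possible because each group is 1 library and carries 1 replicate number. Ratios within each arm are in the report. With both drug arms summed, the AngII/PE over saline share ratio stayed within the main interval (0.627 to 1.68) under every alternative run, from 0.655 to 1.05, except without barcodes at C1q of 10 or more per 10000 (0.557). The single arms, at 1.92 and 0.546, lay outside it. The gene counts depended on the settings, as follows, and are not shares, since the number of genes compared also differed. On the TMM scale 241 genes were lower under AngII/PE. With a mean of at least 300 CPM, 35 were higher and 59 lower under AngII/PE and 13 and 11 after carboplatin, fewer genes being compared. With 10 or more UMIs as the only filter, more genes were compared and the counts were 1332 and 429, and 346 and 755. Within the carboplatin arm alone, AngII/PE gave 248 and 237. Carboplatin gave 102 and 172 within the saline arm and 74 and 79 within the AngII/PE arm. In these single-arm counts only the 2-fold ratio was required, without agreement between arms, which is looser than the main rule. Female-called cells gave 415 and 360 for AngII/PE and 260 and 442 for carboplatin, the last pair resting on 1 PBS cell, and male-called cells 87 and 115 for carboplatin. In both, a UMI in 4 cells was enough. With 0 female-called cells in the PBS saline library, agreement was checked in only 1 arm for female-called cells. A limit of 50 on S100a8 with S100a9 gave 70 and 96 for carboplatin, C1q under 10 gave 72 higher, the 50 alone gave 76 higher, and the 45 of them with C1q under 20 gave 79 and 81, the last 2 settings added after seeing the data. The causes were not tested. Of 473 recomputed values of the 32 named ratios, 0 changed direction and 80 left the main interval. The single-arm values could not change direction, because genes were named only if both arms went the same way. Genes that failed the filter in a setting gave no value there, and the settings share cells, so nothing is read from the 0.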
